A study of Homo sapiens with 6 samples.

Results

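The ATF4-CHOP integrated stress response genes are described here in cells labelled HepG2, an established human liver cancer cell line, after treatment with polydatin (PD), a plant compound that is the glucoside of resveratrol. The 10 genes were taken by name from the 28563 genes of the deposited table, and each was found under its Ensembl identifier in GENCODE release 44. They are ATF4, DDIT3, TRIB3, CHAC1, ASNS, SESN2, ATF3, PPP1R15A, STC2 and NUPR1. All 10 passed the minimum for the test, a mean of 0.5 FPKM over the libraries, where FPKM are fragments divided by gene length and by the depth of the library. In 1 experiment, 3 dishes were given PD dissolved in DMSO and 3 dishes were given DMSO alone for 24 h, and each dish gave 1 library. The labels state 336 µM of PD, whereas the paper states a somewhat lower concentration. All dishes came from the same cell line, no second line, dose or time was sequenced, and p-values therefore measure the spread between dishes of this experiment.

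Library totals worked back from the FPKM were 16763318 to 17274927 fragments with DMSO and 16308476 to 18071632 fragments with PD, so that depth was alike in both groups. Libraries of a group were not copies of each other, since the fragment counts of any pair differed by a chi-square of at least 2.30 per gene. Of 20 genes typical of hepatocytes, 10 were analysed, and the others had no values in the deposited data. CPS1 and RBP4 were the 2 that reached 1 FPKM in any library, and RBP4 did so only with PD (at most 0.479 FPKM with DMSO). Transcripts of the transcription factor HNF4A, of APOA1 and of SERPINA1 reached at most 0.106 FPKM, 0.172 FPKM and 0.0452 FPKM in a library. These genes are known to be abundant in HepG2 cells, so their values go against the label, and the identity of the cells was not tested further. The sum over the 10 analysed hepatocyte genes, nearly all of it CPS1, was 222 to 229 FPKM with DMSO and 107 to 113 FPKM with PD. Markers of fibroblasts, endothelial cells and leukocytes summed to at most 5.29 FPKM, 0.398 FPKM and 0.808 FPKM in a library. These sums cover 5 of 8, 5 of 6 and 3 of 6 listed markers, since the others had no values in the deposited data. Mitochondrial transcripts took 11.7% to 11.9% of the summed FPKM with DMSO and 13.5% to 14.0% with PD, and the part of this shift in the results was not tested.

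The integrated stress response is a program that cells use when amino acids run short, unfolded proteins gather in the endoplasmic reticulum (ER), heme is lacking or viral RNA is present. Kinases that sense these states phosphorylate the translation factor eIF2, which lowers protein synthesis in general but allows more translation of the ATF4 mRNA, because short open reading frames upstream in that mRNA otherwise hold its translation back. ATF4 protein then pairs with C/EBP factors on composite DNA elements and switches on genes of amino acid supply and, through DDIT3 (the gene of CHOP), genes linked to cell death. RNA-seq measures the mRNA only, so neither ATF4 protein nor eIF2 phosphorylation was measured. In RNA from whole dishes, a change in the amount of a transcript per cell and a change in the share of cells that carry it cannot be told apart.

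The promoters of these genes are shown because ATF4 works through them. Of the 10 genes, 9 matched the RefSeq promoter table (GRCh38.p14) in 15 entries, each with 250 bases before and 50 bases after a transcription start, and NUPR1 did not match. The C/EBP-ATF response element (CARE), TGATGNAA on either strand, occurred in 3.62% of the 35116 promoters of the table, and the cyclic AMP response element (CRE), TGACGTCA, in 1.85%. Among the stress response genes, a CARE was found for CHAC1, for ASNS in its upstream entry and for ATF3 in its upstream entry, and a CRE for PPP1R15A. The ER stress response element (ERSE), found in 0.0769% of all promoters, was in no entry of the 9 genes. These matches are letters in a window and not measured binding, and no match in the windows of DDIT3, TRIB3, SESN2, STC2 and ATF4 says nothing of sites elsewhere. The stretches with a match follow 5′ to 3′ on the strand of the gene, with the element in capitals. The CHAC1 stretch lies on the plus strand at chr15:40953221-40953319, with the element read on the opposite strand 202 to 209 bases before the start. The ASNS stretch lies on the minus strand at chr7:97872419-97872526, with the element 61 to 68 bases before the start. The ATF3 stretch lies on the plus strand at chr1:212565166-212565273, with the element 184 to 191 bases before the start. The PPP1R15A stretch lies on the plus strand at chr19:48872313-48872420, with the element 51 to 58 bases before the start.
CHAC1: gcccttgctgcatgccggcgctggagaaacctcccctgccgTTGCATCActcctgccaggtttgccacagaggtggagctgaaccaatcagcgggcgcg
ASNS: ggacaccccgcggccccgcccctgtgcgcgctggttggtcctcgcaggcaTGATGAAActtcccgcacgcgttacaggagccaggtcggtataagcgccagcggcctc
ATF3: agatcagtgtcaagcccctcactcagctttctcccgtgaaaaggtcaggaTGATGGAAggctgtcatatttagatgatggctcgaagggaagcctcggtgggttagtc
PPP1R15A: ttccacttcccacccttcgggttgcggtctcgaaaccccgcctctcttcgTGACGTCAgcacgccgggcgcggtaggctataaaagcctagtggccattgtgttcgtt

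In PD-treated cells the 10 genes did not move as a block. DDIT3, ASNS and CHAC1 rose clearly, SESN2 and NUPR1 rose by less, TRIB3 rose slightly in a call that 7 of the 12 alternative settings lost, and STC2 fell. ATF4 itself, ATF3 and PPP1R15A did not pass the test. By limma on log2(FPKM + 1), with p-values adjusted by Benjamini-Hochberg over 14400 genes, 6 of the 10 were higher (5 without TRIB3 in those 7 settings) and 1 was lower in PD at an adjusted p of at most 0.05. This has to be read against the whole table, in which 31.9% of the tested genes were higher and 26.2% were lower by the same rule, so that counts of this kind are common in these libraries. With a change of at least 2-fold in addition, DDIT3 was the 1 upregulated DEG and STC2 the 1 downregulated DEG of the 10, where 2.04% of the tested genes were called higher, 1.57% lower and 3.61% in either direction. The 3 PD libraries lay above all 3 DMSO libraries for 6 genes and below them for 1, while 35.6% of the tested genes were separated upward, 29.9% downward and 65.4% in either direction. The median log2 fold change was 0.23 over the 10 genes and 0.01 over all genes tested.

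**Figure D1:**
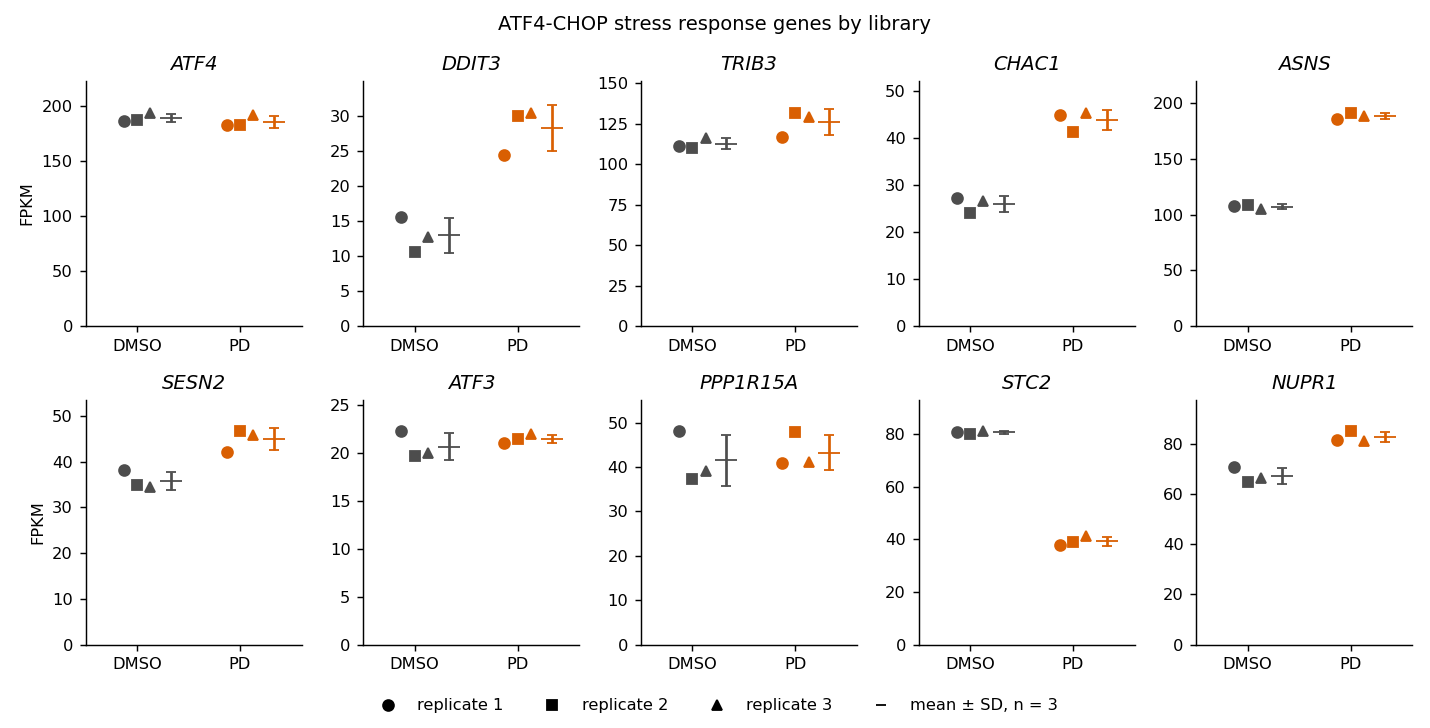
Each panel plots the FPKM of 1 gene (vertical axis, from 0) in the 3 DMSO and the 3 PD libraries, with the replicate number as the shape of the point and the mean ± SD (n = 3) beside it. The groups are apart for DDIT3, TRIB3, CHAC1, ASNS, SESN2, NUPR1 and STC2 and overlap for ATF4, ATF3 and PPP1R15A, and STC2 is the 1 gene that is lower in PD.

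ATF4, the transcription factor at the center of the response, lies on chromosome 22 of GRCh38 from 39519695 to 39522683. Its level was 187, 187 and 193 FPKM in DMSO replicates 1, 2 and 3 and 182, 182 and 191 FPKM in PD replicates 1, 2 and 3. The groups overlapped, since PD replicate 3 lay above DMSO replicates 1 and 2. The means were 189 ± 3.79 FPKM with DMSO and 185 ± 5.30 FPKM with PD (SD, n = 3 each). The log2 fold change was -0.03 with a 95% interval of -0.10 to 0.04 (limma, adjusted p = 0.447), so that a rise of the mRNA of more than 0.04 on this scale lies outside the interval. In the setting that lowered PD values the most, scaling by the upper quartile, it was -0.08 with an adjusted p of 0.0809. ATF4 has processed pseudogenes elsewhere in the genome, of which ATF4P3 reached 0.554 to 1.19 FPKM in a library, and fragments shared with such copies are not certain to be assigned to the right gene.

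DDIT3 encodes CHOP, a C/EBP family factor that is induced by ATF4 and known for its part in cell death under lasting ER stress. It had the lowest DMSO level of the 10 genes, with 15.5, 10.6 and 12.7 FPKM in the DMSO replicates, and 24.4, 29.9 and 30.4 FPKM in the PD replicates. All PD libraries were above all DMSO libraries, although the spread within each group was wide. The mean rose from 12.9 ± 2.46 to 28.3 ± 3.32 FPKM (SD over 3 libraries each), a ratio of 2.18. The log2 fold change was 1.08, standard error 0.14, with an interval of 0.76 to 1.39 (limma, adjusted p = 0.000404), and 1.51% of the tested genes rose at least as far. Between 225 and 664 fragments per library stand behind these values, and the spread between dishes, 19.0% of the mean with DMSO and 11.8% with PD, was larger than the counting error of 5.98% and 4.03%. Without DMSO replicate 2 the log2 fold change was 0.95, short of 2-fold. DDIT3 lies on chromosome 12 from 57516588 to 57521737, and its exons overlap exons of MARS1 and MBD6 on the opposite strand and of an unnamed protein-coding gene on the same strand. Whether the counting used strand is not given in the sources used here, so that its level is less certain. The overlapping partners on the opposite strand went the other way, with a log2 fold change of -0.28 for MARS1 and -0.24 for MBD6. The gene on the same strand had no values in the deposited data, so its direction is not known.

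ATF3, a stress-inducible factor of the same bZIP class that several pathways switch on, was measured at 22.2, 19.7 and 19.9 FPKM with DMSO and at 21.0, 21.4 and 21.9 FPKM with PD. The groups overlapped because DMSO replicate 1 was higher than every PD library. Its log2 fold change was 0.06, with an interval of -0.07 to 0.18 (limma, adjusted p = 0.385). Without DMSO replicate 1 it was 0.11 with an adjusted p of 0.0624, the lowest adjusted p of the 12 alternatives. ATF3 lies on chromosome 1 from 212565334 to 212620777, and its upstream promoter entry holds the CARE printed above.

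ASNS encodes asparagine synthetase, a classical target of ATF4 that makes asparagine when amino acids are scarce. Its level was 108, 109 and 105 FPKM with DMSO and 186, 191 and 188 FPKM with PD. The spread within groups was small and the groups lay far apart. The mean rose from 107 ± 2.21 to 189 ± 2.52 FPKM (SD over 3 libraries each), a ratio of 1.76 and a log2 fold change of 0.81, standard error 0.03 (limma, adjusted p = 2.71e-06). At least 7984 fragments per library were counted on ASNS, and 4.45% of the tested genes rose as far or farther. Over the 12 alternatives its log2 fold change stayed between 0.76 and 0.82. The gene lies on chromosome 7 from 97851677 to 97872542, with exons that overlap an unnamed noncoding gene on the same strand, and the CARE lies in its upstream promoter entry.

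CHAC1, an enzyme that degrades glutathione and a target of ATF4 and CHOP, had 27.3, 24.0 and 26.6 FPKM with DMSO and 44.8, 41.4 and 45.3 FPKM with PD. Every PD library was above every DMSO library. The mean rose from 26.0 ± 1.73 to 43.9 ± 2.17 FPKM (SD over 3 libraries each), a ratio of 1.69 and a log2 fold change of 0.74, standard error 0.06 (limma, adjusted p = 4.33e-05). Fragment counts were 414 to 834 per library, and the change stayed between 0.68 and 0.78 over the 12 alternatives. CHAC1 lies on chromosome 15 from 40952962 to 40956512 and no other gene overlaps its exons.

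SESN2 encodes sestrin 2, which restrains mTORC1 when leucine is low and is induced by ATF4. It was measured at 38.2, 34.8 and 34.4 FPKM with DMSO and at 42.2, 46.6 and 45.9 FPKM with PD. The groups did not overlap, but the gap between the highest DMSO and the lowest PD library was narrow. The ratio of the means was 1.25 and the log2 fold change 0.32, with an interval of 0.19 to 0.45 (limma, adjusted p = 0.00186). SESN2 lies on chromosome 1 from 28259518 to 28282491.

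NUPR1, a small chromatin-associated stress protein, had 70.7, 64.6 and 66.2 FPKM with DMSO and 81.5, 84.8 and 81.1 FPKM with PD. The PD libraries were all higher. The ratio of the means was 1.23 and the log2 fold change 0.29, with an interval of 0.20 to 0.39 (limma, adjusted p = 0.000654). A change at least this large in the same direction was seen in 24.7% of the tested genes. NUPR1 lies on chromosome 16 from 28532708 to 28539008 and shares exon positions with an unnamed noncoding gene on the same strand.

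Among the feedback regulators, TRIB3 encodes a pseudokinase that binds ATF4 and CHOP and dampens them. It was an abundant transcript, with 111, 110 and 116 FPKM with DMSO and 117, 132 and 129 FPKM with PD. PD replicate 1 lay just above DMSO replicate 3. The ratio of the means was 1.12 and the log2 fold change 0.16, with an interval of 0.05 to 0.28 and an adjusted p of 0.0247 (limma). This call did not last, since TRIB3 passed the threshold in 5 of the 12 alternatives and missed it in the other 7, with adjusted p of 0.00231 to 0.0892. It was lost with scaling by median of ratios (0.0569) or by the upper quartile (0.0892), with no filter on FPKM (0.0685), and without DMSO replicate 1 (0.0677), DMSO replicate 2 (0.0713), PD replicate 2 (0.0823) or PD replicate 3 (0.0825). TRIB3 lies on chromosome 20 from 362835 to 397559.

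PPP1R15A encodes GADD34, the stress-induced subunit that brings protein phosphatase 1 to eIF2 and so ends the response. Its values were 48.0, 37.4 and 39.2 FPKM with DMSO and 40.9, 47.9 and 41.1 FPKM with PD. In each group 1 library, DMSO replicate 1 and PD replicate 2, was high and the others were close together, and the groups overlapped. The log2 fold change was 0.06 with a wide interval of -0.18 to 0.30 (limma, adjusted p = 0.623). The spread between DMSO dishes was 13.7% of the mean, beside a counting error of 2.14%. Without DMSO replicate 1 the change was 0.17 (adjusted p = 0.104), and it turned slightly below 0 without PD replicate 2 (adjusted p = 0.939) or without DMSO replicate 2 (adjusted p = 0.962). PPP1R15A lies on chromosome 19 from 48872212 to 48876059.

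STC2, which encodes the secreted glycoprotein stanniocalcin 2 and is a known target of ATF4 in ER stress, went against the 6 genes that rose. It had 81.0, 80.0 and 81.1 FPKM with DMSO and 37.9, 38.9 and 41.2 FPKM with PD. The DMSO libraries were nearly equal, and every PD library was far below them. The mean fell from 80.7 ± 0.604 to 39.3 ± 1.69 FPKM (SD, n = 3 each), a ratio of 0.487. On the log2 scale the fold change was -1.02, standard error 0.04 (limma, adjusted p = 3.12e-06), and 1.45% of the tested genes fell at least as far. Without PD replicate 1 the change was -0.99 and so just under 2-fold. STC2 lies on chromosome 5 from 173314723 to 173328447, its exons overlap no other gene, and at least 4117 fragments per library were counted on it.

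**Figure D2:**
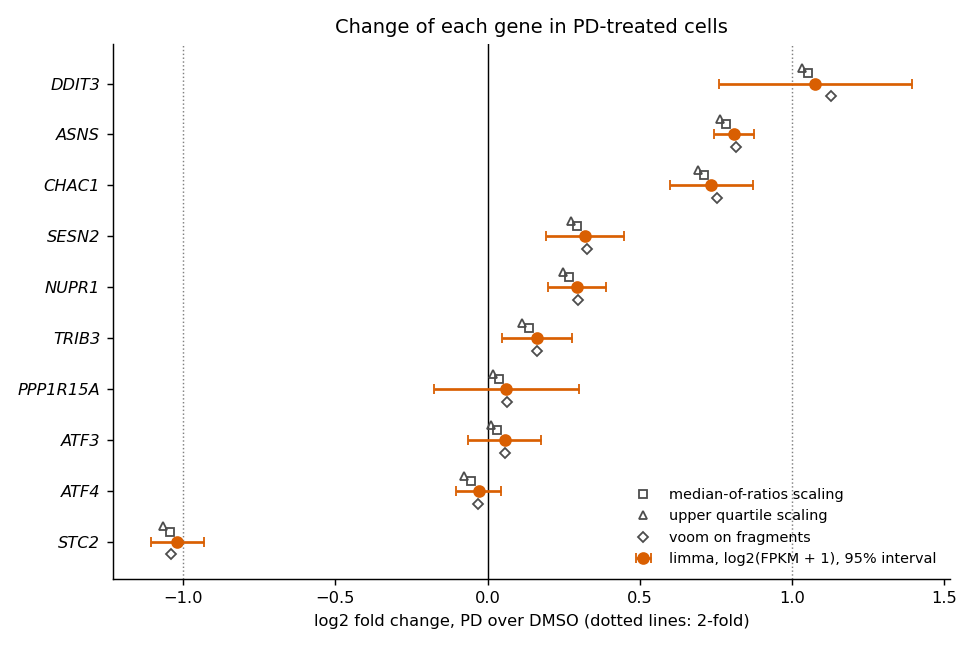
The log2 fold change of PD over DMSO (horizontal axis) is plotted for each of the 10 genes with its 95% interval from limma, beside the values from the other scalings and from voom on fragments. STC2 (-1.02) and DDIT3 (1.08) lie at opposite ends, the intervals of ATF4, ATF3 and PPP1R15A include 0, and both scalings lower the value of every gene slightly.

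The order of the 10 levels, in FPKM and so per gene length, was different in the treated cells. With DMSO, ATF4 was the most abundant, followed by TRIB3, ASNS, STC2, NUPR1, PPP1R15A, SESN2, CHAC1, ATF3 and DDIT3, and PPP1R15A and SESN2 were the only neighbours in this order whose libraries overlapped. With PD, ASNS came level with ATF4, at 186 to 191 FPKM against 182 to 191 FPKM, and their libraries overlapped. TRIB3 and NUPR1 followed, and then SESN2, CHAC1, PPP1R15A and STC2, each of which overlapped its neighbour in this order. STC2, which lay above NUPR1, SESN2 and CHAC1 in every DMSO library, lay below all of them in every PD library, with at most 41.2 FPKM against at least 41.4 FPKM for CHAC1. DDIT3, with at least 24.4 FPKM, passed ATF3, with at most 21.9 FPKM, to leave ATF3 in the last place.

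To compare the genes with each other free of any scaling between libraries, each was divided by ATF4 in the same library. The log2 ratio of DDIT3 to ATF4 was -3.59, -4.14 and -3.92 in the DMSO replicates and -2.90, -2.61 and -2.65 in the PD replicates, a difference of 1.17. For ASNS the difference between the group means was 0.84, for CHAC1 0.79, for SESN2 0.36, for NUPR1 0.33 and for TRIB3 0.19, and all PD ratios of these genes were above all DMSO ratios. The log2 ratio of STC2 to ATF4 was -1.20, -1.23 and -1.25 in the DMSO replicates and -2.27, -2.23 and -2.22 in the PD replicates, a difference of -1.01 without overlap. The ratios of ATF3 and PPP1R15A overlapped between the groups, with differences of 0.09 and 0.09. In FPKM, 65.4% of all tested genes had groups without overlap, so that such separation is common in these libraries. This share was not computed for ratios to ATF4. With 3 libraries against 3, the exact two-sided permutation test cannot give less than 0.10, and this value was reached by the 7 ratios that did not overlap (0.129 after Benjamini-Hochberg adjustment over 9 ratios). DDIT3, ASNS and CHAC1 thus moved away from ATF4 in one direction and STC2 in the other.

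**Figure D3:**
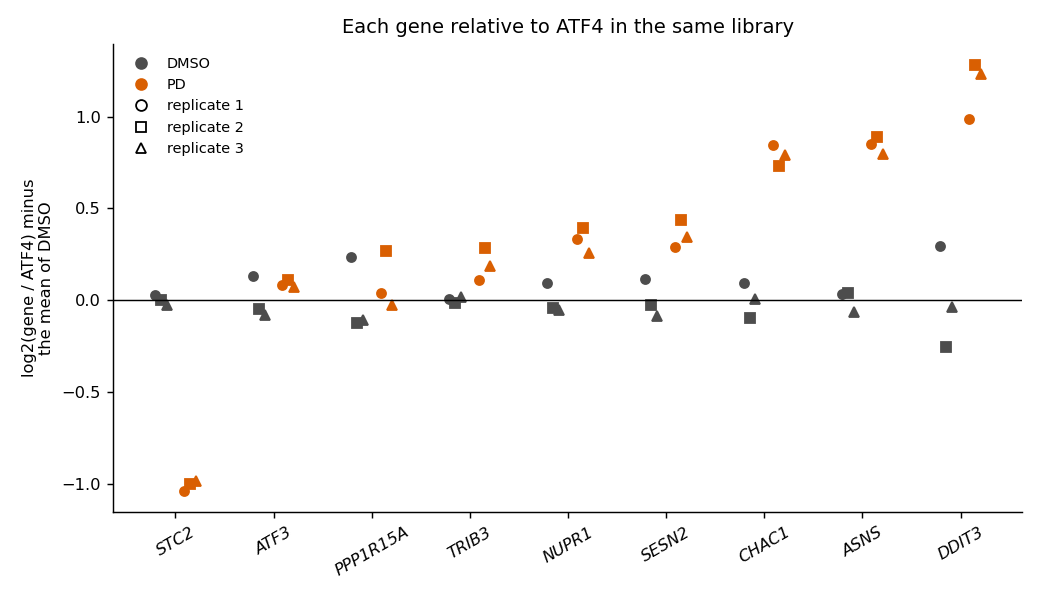
For each of the other 9 genes, the log2 ratio to ATF4 within a library is plotted after subtraction of the mean of the DMSO libraries (vertical axis), with the treatment as color and the replicate number as shape. PD libraries lie about 1.01 below the DMSO mean for STC2 and 1.17 above it for DDIT3, while points of ATF3 and PPP1R15A overlap.

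Within groups, single libraries also stood apart over several of these genes. DMSO replicate 1 was the highest DMSO library for 6 of the 10 genes, among them DDIT3, ATF3, PPP1R15A and SESN2, whereas it was the highest for 34.4% of all tested genes. DMSO replicate 2 was the lowest DMSO library for 7 of the 10 genes, compared with 34.0% of all tested genes. PD replicate 1 was the lowest PD library for 7 of the 10 genes, compared with 34.5% of all tested genes. The cause was not tested. Leaving out DMSO replicate 1 or PD replicate 1 gave log2 fold changes of 1.21 and 1.17 for DDIT3, and 0.37 and 0.36 for SESN2, and no call among the 10 was lost except that of TRIB3 without DMSO replicate 1.

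Upstream of ATF4, 20 genes of the eIF2 arm were listed, which comprise the kinases that sense stress, eIF2 and its exchange factor eIF2B, and the phosphatase that reverses the modification. Of these, 8 were higher, 5 were lower and 7 were not called, beside 31.9% higher and 26.2% lower over all tested genes, and the median log2 fold change was 0.08. On the FPKM + 1 scale none reached 2-fold, beside 3.61% of all tested genes called at 2-fold in either direction. The mRNA of PERK (EIF2AK3), the kinase of the ER, was low and went up from 2.98 ± 0.443 to 4.18 ± 0.548 FPKM (SD over 3 libraries each) and had a log2 fold change of 0.38 (limma, adjusted p = 0.0187), a call that was lost without PD replicate 1 (0.0503), without PD replicate 3 (0.0634) and with no filter (0.0584). GCN2 (EIF2AK4), which senses uncharged tRNA, rose by 0.22 (adjusted p = 0.0103). HRI (EIF2AK1), which senses heme and mitochondrial stress, rose by 0.13 (adjusted p = 0.00659), and this call was lost with scaling by the upper quartile (0.0515). PKR (EIF2AK2), which senses double-stranded RNA, had a log2 fold change of -0.00 (adjusted p = 0.978). The largest changes of the list were those of DNAJC3 (0.79), OMA1 (0.79) and PPP1CA (0.64). DNAJC3 is an ER cochaperone that inhibits some of these kinases, and OMA1 is the mitochondrial protease that relays stress to HRI. PPP1CA is a catalytic subunit of protein phosphatase 1. OMA1 was a low transcript with a ratio of mean FPKM of 2.02, and its log2 fold change was past 2-fold when 0.1 was added in place of 1 (1.00) and by voom on fragments (1.03). The constitutive partner of that phosphatase, PPP1R15B, fell from 114 ± 7.65 to 73.9 ± 0.836 FPKM (SD over 3 libraries each) with a log2 fold change of -0.62 (limma, adjusted p = 4.33e-05), whereas its stress-induced counterpart PPP1R15A was not called. Exons of OMA1, PPP1CA, PPP1R15B, EIF2AK1, EIF2AK2 and EIF2AK3 overlap other annotated genes, so their values are less certain.

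Factors that can pair with ATF4, CHOP or ATF3 went both ways. Of 15 bZIP partners, 14 were tested, and 6 were higher and 6 lower, beside 31.9% and 26.2% of all tested genes, with a median log2 fold change of 0.01. CEBPA, a factor of differentiated hepatocytes, rose from 0.260 ± 0.0160 to 1.27 ± 0.0993 FPKM (SD, n = 3 each). Every DMSO library was below the minimum mean of 0.5 FPKM, so CEBPA was tested only because its PD values were high. A fall from the DMSO level could not have been called, and CEBPA is 1 of the 6 counted as higher. Its log2 fold change was 0.85 on the FPKM + 1 scale and 2.24 with voom on fragments, because the added 1 compresses such low values, and noncoding genes overlap it on the opposite strand. FOS rose by 0.55, from a mean of 1.07 to one of 2.02 FPKM, had a log2 fold change of 0.95 with voom on fragments, and lost its call without PD replicate 2 (0.0549) and with no filter (0.0548). CEBPD fell by 0.53. The partners most often named with ATF4 were named here after their values were seen: CEBPB, with a log2 fold change of -0.37, and CEBPG, with -0.12, were both lower (limma, adjusted p at most 0.0127), and ATF5, itself a target of the pathway, was not called (0.00, adjusted p = 0.969).

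Beyond the 10 genes, 45 other known targets of ATF4 or CHOP were listed and 44 were tested. Of these, 17 were higher and 14 were lower, beside 31.9% and 26.2% of all tested genes, and the median log2 fold change was 0.06. The 1 gene past 2-fold was ULBP1, a ligand of an activating receptor of natural killer cells. Over all tested genes, 2.04% were called higher at 2-fold and 3.61% in either direction, so 1 such gene is no more than common. ULBP1 went up from 4.50 ± 0.545 to 10.0 ± 0.0948 FPKM (SD over 3 libraries each). Its log2 fold change was 1.01 and ended between 0.94 and 1.16 over the alternatives. SLC1A4, a transporter of neutral amino acids, rose from 22.3 ± 0.791 to 38.2 ± 0.542 FPKM (log2 fold change 0.75), and PCK2, the mitochondrial phosphoenolpyruvate carboxykinase, from 27.4 ± 1.10 to 43.6 ± 2.43 FPKM (0.65).
The targets were also grouped by the role of their proteins, a grouping made after the values had been seen. The counts below stand beside 31.9% higher and 26.2% lower over all tested genes. They leaned in different directions, a difference between groups that was not tested. Of 11 genes of tRNA charging and export, 8 were lower and AARS1 (0.42) and WARS1 (0.18) were the 2 that were higher, with a median of -0.20. Of 8 amino acid transporters, 5 were lower, and SLC1A4 was the 1 that was higher. Among the metabolic genes, 5 of 10 enzymes of amino acid and folate metabolism were higher and none was lower, with a median of 0.15, although median-of-ratios scaling, upper quartile scaling, voom and the fit without DMSO replicate 2 each called 1 of them lower. The 3 genes linked to cell death, TNFRSF10B, BBC3 and BCL2L11, which other stress pathways are also known to induce, were all higher, with a median of 0.34, and 2 of them were higher with upper quartile scaling, without DMSO replicate 1 or without PD replicate 3.

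**Figure D4:**
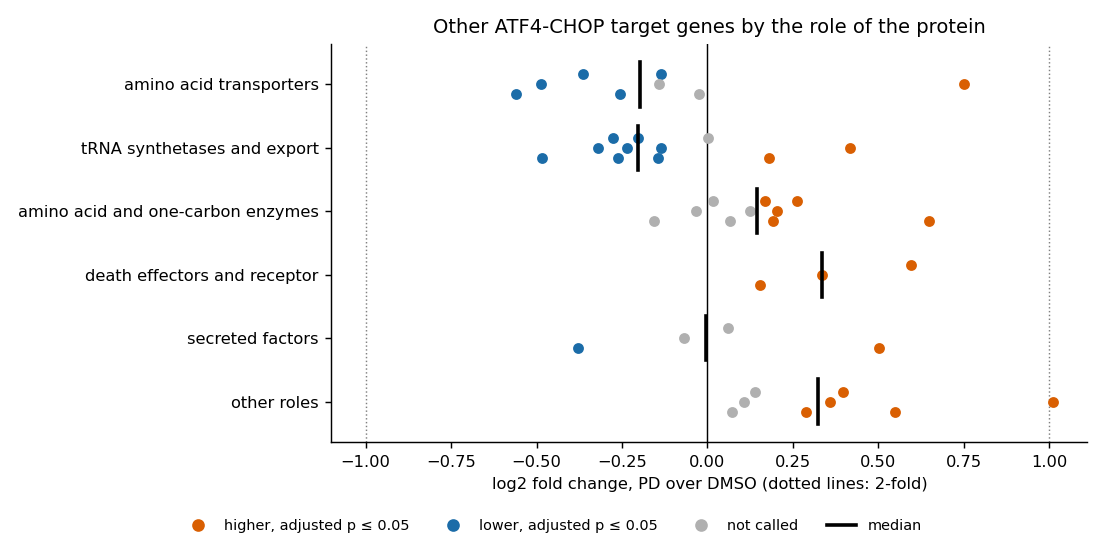
Each point is the log2 fold change of PD over DMSO (horizontal axis) of 1 of the 44 other ATF4-CHOP targets tested, arranged by the role of the protein and colored by the call at an adjusted p of 0.05, with the median of each group as a bar. The tRNA genes and transporters have medians of -0.20 and -0.20 and the enzymes one of 0.15.

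The paralogs of the 10 genes were also listed. SESN3, a paralog of SESN2, rose from 1.58 ± 0.133 to 7.12 ± 0.687 FPKM (SD over 3 libraries each), a ratio of 4.51. Its log2 fold change was 1.65, standard error 0.08 (limma, adjusted p = 5.98e-06), on the FPKM + 1 scale, which compresses such low values. Over the 12 alternatives it ran from 1.59 to 2.17. A noncoding gene overlaps the exons of SESN3 on the opposite strand. SESN1 rose from 1.42 ± 0.0104 to 2.63 ± 0.402 FPKM, a log2 fold change of 0.58 (limma, adjusted p = 0.00131) that ran from 0.50 to 0.86 over the alternatives. It too overlaps a gene on the opposite strand. All 3 sestrin genes were thus higher in PD, from very different starting levels. Of 9 paralogs listed, 6 were tested, 2 were higher and 1, PPP1R15B, was lower, beside 31.9% and 26.2% of all tested genes. TRIB1, a paralog of TRIB3, and CHAC2, the paralog of CHAC1, were not called, with log2 fold changes of 0.18 (adjusted p = 0.102) and 0.01 (adjusted p = 0.853).

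The chaperones and sensors of the ER, which belong to the unfolded protein response and share the kinase PERK with the integrated stress response, were nearly all higher. Of 19 genes, 17 were higher and none was lower, 5 of them by at least 2-fold, and the median log2 fold change was 0.50. Over all tested genes, 31.9% were higher, 26.2% were lower and 2.04% were higher by at least 2-fold. MANF, a secreted protein induced by ER stress, went up from 16.1 ± 0.677 to 41.5 ± 0.423 FPKM (SD over 3 libraries each) and had a log2 fold change of 1.31. SDF2L1 rose by 1.24 and the lectin chaperone CALR by 1.16, from 136 ± 3.90 to 306 ± 4.56 FPKM, with a noncoding gene on the opposite strand overlapping CALR. The sensors ATF6 and ERN1 were not called, with log2 fold changes of -0.13 (limma, adjusted p = 0.0668) and 0.06 (adjusted p = 0.396), and ATF6 was called lower under some of the other settings. DNAJC3 is a member of both this list and the eIF2 arm. No test compared the ER genes with the 10 stress response genes as sets.

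**Figure D5:**
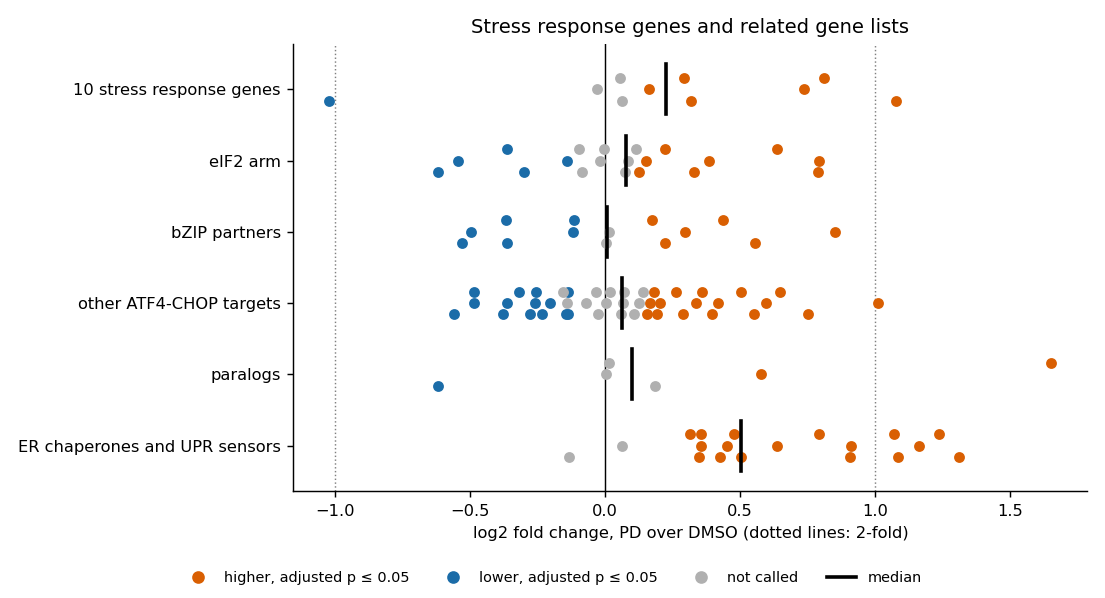
Each point is the log2 fold change of PD over DMSO (horizontal axis) of 1 tested gene, in rows for the 10 stress response genes and 5 related gene lists, colored by the call at an adjusted p of 0.05, with the median as a bar. The medians are 0.23 for the 10 genes, 0.08 for the eIF2 arm, 0.01 for the bZIP partners, 0.06 for the other targets, 0.10 for the paralogs and 0.50 for the ER genes.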

How the data were processed

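RNA of cells labelled HepG2 and treated with PD or DMSO for 24 h was sequenced, with 3 libraries per group, assigned from the sample titles. Per the labels and the paper, the authors purified poly(A) RNA, sequenced both ends of each fragment, mapped the reads with HISAT2 on hg38, used HTSeq 0.6.0 for gene counts and deposited FPKM, the unit of the table used here. The annotation release and the strand setting are not given in the sources used here, and the FPKM were not scaled further between libraries. Symbols, coordinates and exon overlaps came from GENCODE release 44 (28161 of 28563 identifiers matched).

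Differences were fitted on log2(FPKM + 1) with limma 3.58.1 in R 4.3.3, without covariates, for genes averaging 0.5 FPKM or more, with an intensity trend in the prior variance. P-values were adjusted by Benjamini-Hochberg over all tested genes. Calls needed an adjusted p of at most 0.05, and DEGs a 2-fold change in addition. The pseudocount of 1 compresses changes of low values. Ratios to ATF4 were compared by exact two-sided permutation tests in scipy 1.17.1.

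Whole fragments were recovered from the FPKM steps (tolerance 0.001 fragments), with the GENCODE exon length for 12879 genes and a common step for 15684. They describe depth and entered limma voom (at least 10 fragments in 3 or more libraries). Alternatives were this fit, a pseudocount of 0.1, no filter, the replicate number as a block, median-of-ratios or upper quartile scaling, and leaving out each library. Fragment counts and their errors cover counting error only.

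The 10 genes and all gene lists were chosen with earlier results of these data known. Named genes were the 10, the 4 eIF2 kinases, the 3 largest called changes without overlap in each list and the hepatocyte genes reaching 1 FPKM. AARS1, WARS1, CEBPB, CEBPG, ATF5, ATF6, ERN1, TRIB1, CHAC2, the overlapping partners and genes named for being low or lone were chosen after their values were seen. Some genes and 1 gene list were computed but are not reported here.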

Additional observations from a re-analysis of the deposited data

How the results depend on the processing

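Over the 12 alternatives, DDIT3, ASNS, CHAC1, SESN2, NUPR1 and STC2 kept their direction and their call, ATF4, ATF3 and PPP1R15A were never called, and TRIB3 lost its call in 7. With each library left out in turn, the genes called higher numbered 5 to 6 of 10, the upregulated DEGs 0 to 1 (0 without DMSO replicate 2) and the downregulated DEGs 0 to 1 (0 without PD replicate 1). The log2 fold change of PPP1R15A ran from -0.011 to 0.17 and that of EIF2AK2 from -0.068 to 0.059 in these fits, crossing 0, and the cause was not tested. In the list of ER genes, the number called lower rose from 0 to 1, the sensor ATF6, with median-of-ratios scaling (1), upper quartile scaling (1), voom on fragments (1) and without DMSO replicate 3, a range of 0 to 1 over the libraries left out. The replicate numbers are shared by the groups, but same-numbered libraries did not deviate together (correlations of -0.03, -0.00 and 0.09 for replicates 1, 2 and 3), and with the replicate number as a block the counts of the 10 genes were again 6 higher and 1 lower. Scaling moved the median log2 fold change of all tested genes from 0.01 to -0.01 (median of ratios) or -0.02 (upper quartile). DDIT3 and CHAC1 had the lowest fragment counts of the 10 genes, and for both the spread between dishes was larger than the counting error.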

Other observations

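ATF3 and PPP1R15A also respond within minutes to growth signals, together with the immediate early genes. Of 22 such genes, 19 were tested, and 8 were higher and 8 were lower, beside 31.9% and 26.2% of all tested genes. KLF2, a zinc finger factor, went up from 3.17 ± 0.358 to 10.4 ± 1.46 FPKM (SD over 3 libraries each) and had a log2 fold change of 1.45 (limma, adjusted p = 2.66e-05). EGR1 rose by 1.14 from 0.746 ± 0.305 to 2.90 ± 1.05 FPKM, and by 1.95 with voom on fragments. CCN1, a matrix protein and a target of YAP, fell from 75.5 ± 9.80 to 30.7 ± 2.05 FPKM, a log2 fold change of -1.26 (adjusted p = 2.93e-05).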
